A study of Mus musculus with 12 samples.

Results

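The genes of cone phototransduction were followed through rod ribosomes and whole retina of mice without Abca4, the transporter that clears retinaldehyde from photoreceptor disc membranes. The set holds 10 genes, taken by gene name, of the 56748 entries in the authors' table of scaled counts and the 55372 in their table of TPM, the share of a library's transcripts that a gene takes after correction for length. They are the short-wave and middle-wave cone opsins Opn1sw and Opn1mw, cone arrestin Arr3, the cone transducin subunits Gnat2, Gnb3 and Gngt2, the cone phosphodiesterase subunits Pde6c and Pde6h, and the cone channel subunits Cnga3 and Cngb3. All 10 passed the filter on low values in every comparison. Mice were 2 months old and were perfused with cycloheximide, an inhibitor that freezes translating ribosomes in place, before tissue was flash-frozen. Every mouse carried RiboTag, a tagged ribosomal protein that Cre switches on, and i75-Rod-Cre, a Cre active in rods from about the end of the first postnatal week. Abca4Ko mice also lacked Abca4 (RiboTag;Abca4-/-;i75-Rod-Cre), and their littermates without that allele were the controls (RiboTag;i75-Rod-Cre). For each genotype there were 3 libraries of message pulled down with the tagged ribosomes (rod TRAP, 10 ng of RNA) and 3 of the lysate before the pull-down (retina, 5 ng), 12 in all. The labels do not say how many animals a library holds or which sex they were.

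Cones answer bright light with a cascade that parallels the one in rods but is built largely from other gene products. Light turns the opsin, the opsin activates transducin, transducin relieves the inhibitory subunit of the phosphodiesterase, cyclic GMP falls and the channel of the outer segment closes. Arrestin then silences the opsin. Cones are a small minority of mouse photoreceptors, and most of them hold both opsins in a ratio that changes from the upper to the lower retina. Because the tag is driven in rods, the question put to rod TRAP was how much cone message it held, and whether genotype moved that message in the same direction there and in retina.

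The libraries were checked before the cone genes were read. Abca4 stood at 61017, 53193 and 53533 scaled counts in control rod TRAP and at 195, 365 and 13156 in the libraries labelled Abca4Ko 1, 2 and 3. In retina it stood at 38929, 37619 and 38090 in controls and at 153, 366 and 8124 in those labelled Abca4Ko. The libraries labelled Abca4Ko 3 thus held far more of the targeted message than the other knockouts in both fractions, and genotype results are also given without them. Scaled counts sum to the same total in all libraries of a fraction (17096515 to 17097707 in rod TRAP and 17860761 to 17862326 in retina), so the sequencing depth is unknown. The retina library Abca4Ko 1 stood apart, with bipolar cell markers other than Prkca summing to 930.4 TPM against 1941.1 and 2065.3 in its group and 1279.9 to 2150.2 in controls. Xist, the RNA of female cells, was at 458, 0 and 441 scaled counts in Abca4Ko retina and at 2, 0 and 124 in control retina, while the Y-linked Ddx3y lay between 32 and 140 in all 6 retina libraries. Opn1mw and Arr3 lie on the X chromosome.

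Promoter windows are shown for 4 members, the opsins, cone arrestin and the transducin alpha subunit, whose normalised values did not overlap between genotypes in rod TRAP. RefSeq held windows for 6 of the 10 members (Opn1sw, Opn1mw, Arr3, Gnat2, Pde6h and Cnga3), on GRCm38.p6. The first lies at chr6:29380514-29380763 on the minus strand, the second at chrX:74127216-74127463, the third at chrX:100605247-100605496 and the last, cut to its final 30 bases because the whole window, these bases included, is exonic in another transcript model of the gene, at chr3:108093036-108093065, all 3 of these on the plus strand. Each ends just before the annotated start of transcription. Capitals mark TAATC, the core of sites bound by CRX and OTX2, the half-site AGGTCA of nuclear receptors, and TGCTGA, the half-site of NRL and other MAF factors, on either strand. In Gnat2 they mark the longer form TAATCC, which holds TAATC, read on the opposite strand.
Opn1sw: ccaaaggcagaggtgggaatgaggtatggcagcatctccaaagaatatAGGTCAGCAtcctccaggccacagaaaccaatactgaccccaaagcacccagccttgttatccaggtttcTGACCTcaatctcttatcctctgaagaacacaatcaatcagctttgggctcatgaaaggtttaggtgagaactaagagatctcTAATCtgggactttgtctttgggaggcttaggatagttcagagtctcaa
Opn1mw: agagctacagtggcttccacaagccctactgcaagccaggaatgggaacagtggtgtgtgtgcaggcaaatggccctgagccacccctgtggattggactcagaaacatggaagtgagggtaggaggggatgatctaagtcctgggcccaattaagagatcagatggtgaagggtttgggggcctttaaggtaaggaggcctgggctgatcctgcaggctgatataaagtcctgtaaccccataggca
Arr3: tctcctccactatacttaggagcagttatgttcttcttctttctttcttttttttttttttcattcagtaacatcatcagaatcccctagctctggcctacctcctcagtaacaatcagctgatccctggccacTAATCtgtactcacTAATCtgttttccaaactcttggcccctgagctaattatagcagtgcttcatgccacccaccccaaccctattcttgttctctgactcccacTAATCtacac
Gnat2: ggacaatccccGGATTAggaaggagctctc
The longer form TAATCC was found in 1 of the 6 members, Gnat2, on the opposite strand 19 to 14 bases before its start, and in 6.25% of the 32851 mouse windows of 250 bases. The core TAATC, which was added after the windows were seen and is part of TAATCC, was found in 3 of 6 members and in 19.8% of windows, with 3 copies in Arr3. AGGTCA was found in Opn1sw alone, on both strands, against 14% of windows. TGCTGA was also found in Opn1sw alone, against 16.1%, and its copy overlaps the first AGGTCA by 3 bases. Opn1mw, Pde6h and Cnga3 had none of the letters searched. These are matches of letters and say nothing of binding.

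In whole retina of controls the members lay far apart in level. On the TPM scale, which corrects for gene length, Opn1sw was highest at 605.9 ± 48.4 (SD, n = 3), followed by Gngt2 at 391.4 ± 42.0, Gnb3 at 323.4 ± 12.6, Opn1mw at 319.1 ± 43.3, Pde6h at 292.8 ± 30.3, Gnat2 at 246.8 ± 15.4 and Arr3 at 191.4 ± 15.9 TPM. The catalytic subunit Pde6c was at 43.5 ± 8.87, Cnga3 at 10.7 ± 0.902 and Cngb3 at 1.47 ± 0.231 TPM. Opn1mw overlapped its neighbours Gngt2, Gnb3 and Pde6h from library to library, and Pde6h overlapped Gnat2, whereas Opn1sw lay above and Arr3, Pde6c, Cnga3 and Cngb3 lay below the rest without overlap. In control rod TRAP the order changed: Gnb3 had the highest mean at 164.2 ± 44.6 TPM, overlapping Opn1sw at 125.6 ± 7.37. The next 5, from Opn1mw at 71.2 ± 10.1 to Pde6h at 56.0 ± 2.77 TPM, overlapped their neighbours. Pde6c at 20.7 ± 2.15 was again above Cnga3 at 3.57 ± 1.12 and Cngb3 at 2.37 ± 0.351 TPM, and the channel subunits overlapped each other there.

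**Figure D1:**
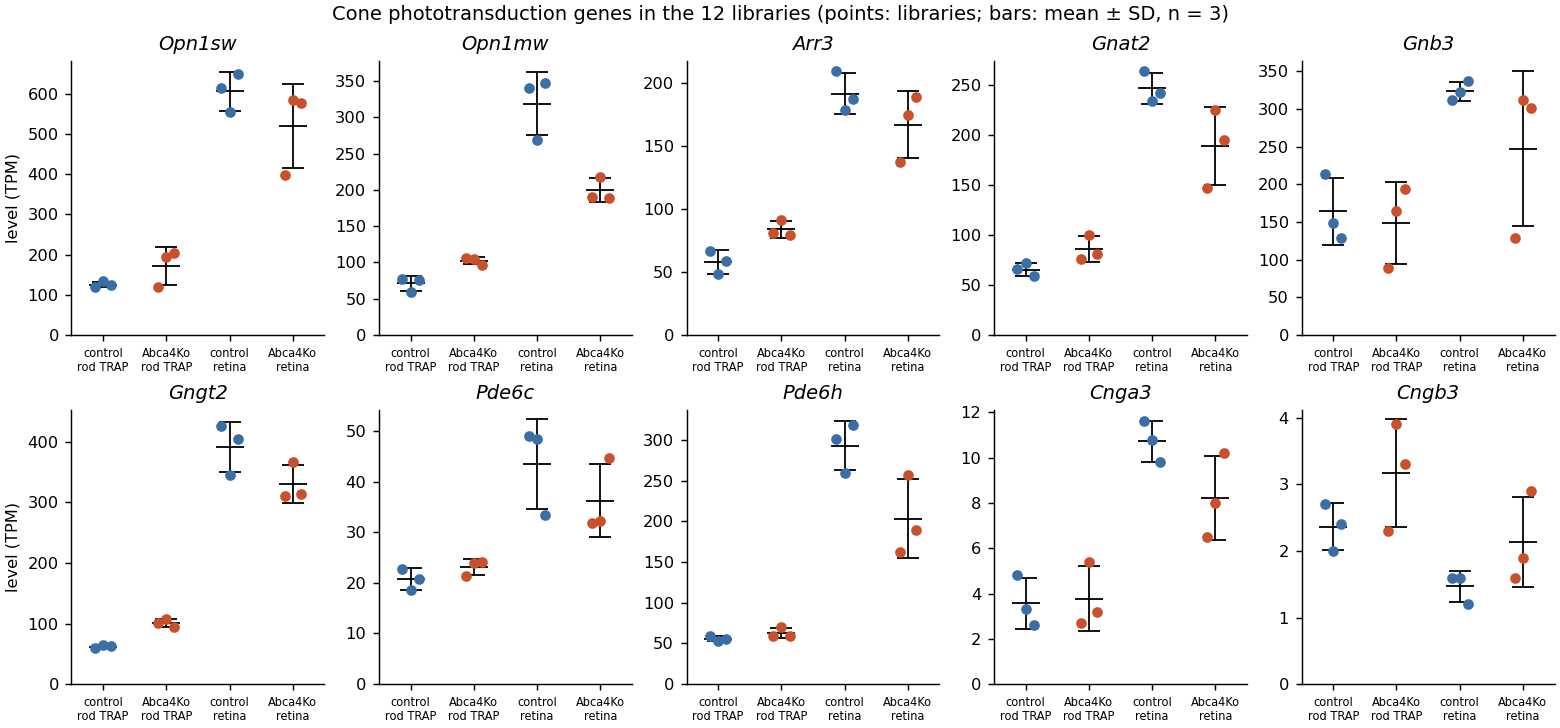
Level of each of the 10 cone genes in TPM (vertical axes, from 0, scaled per gene) in the 4 groups of 3 libraries, with points for libraries and bars for mean ± SD. In control most genes are several-fold lower in rod TRAP than in retina, and the means of the fractions lie closer in Abca4Ko than in control for most of them. Cngb3 is higher in rod TRAP.

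Rod TRAP held much less cone message than retina. In controls 9 of the 10 members were lower in rod TRAP and 1 was higher, all 10 with a limma adjusted p under 0.05, where 38.8% of the 16286 genes tested were lower and 36.6% were higher. The median member log2 difference, rod TRAP over retina, was -1.50, against -0.029 for all genes tested. The steepest was Gngt2, the cone transducin gamma subunit, at -2.26 (SE 0.158, adjusted p = 4.27e-08). It was at 58.9, 64.8 and 62.3 TPM in control rod TRAP and at 425.9, 344.6 and 403.8 TPM in control retina, so that the groups did not overlap. Next were Pde6h, the inhibitory subunit of the phosphodiesterase, at -2.03 (SE 0.163, adjusted p = 1.52e-07), Opn1sw at -1.90 (SE 0.137, adjusted p = 5.45e-08) and Opn1mw at -1.81 (SE 0.165, adjusted p = 4.71e-07). Gnat2 fell by 1.59, Arr3 by 1.41 and Cnga3 by 1.25 on the log2 scale, with adjusted p of 2.37e-07, 3.99e-06 and 2.38e-05. Pde6c fell by 0.75 and Gnb3 by 0.68, the smallest drops, with adjusted p of 7.00e-04 and 0.00299.

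Cngb3, the modulatory channel subunit, went the other way. It was at 2.7, 2.0 and 2.4 TPM in control rod TRAP and at 1.6, 1.6 and 1.2 TPM in control retina. Its rod TRAP values were all above its retina values, with a log2 difference of 0.88 (SE 0.195, adjusted p = 0.00111). The direction held at every scaling tried, but the call did not: under the authors' scaling alone the difference was 0.30 (adjusted p = 0.176), and on the TPM scale 0.45 (adjusted p = 0.0582). The authors' scaling shifts the median of all genes by -0.62 in this comparison and turns 5968 higher and 6317 lower calls into 3415 and 9549. The levels of this gene are the lowest of the set.

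The rod counterparts of these genes went in the direction that the label of the fraction implies. All 9 examined (Sag, Gnat1, Gnb1, Gngt1, Pde6a, Pde6b, Pde6g, Cnga1 and Cngb1) were higher in rod TRAP than in retina in both genotypes. In controls their log2 differences ran from 0.88 for Pde6g, the inhibitory rod subunit, to 3.98 for Cnga1, the alpha subunit of the rod channel, with a median of 1.51. The summed level of the 8 cone genes other than the opsins was 0.469 ± 0.0590% of the summed level of their rod counterparts in control rod TRAP and 3.22 ± 0.134% in control retina (TPM, n = 3). For single pairs in control retina this share was lowest for Cngb3 against Cngb1, at 0.122 ± 0.0218%, and highest for Gngt2 against Gngt1, at 17.9 ± 3.01%.

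The cone median lay nearer 0 than those of the lists for other retinal cells. The median log2 difference, rod TRAP over retina in controls, was -4.82 for 12 bipolar markers, -4.25 for 10 Müller glia markers, -4.00 for 9 amacrine markers and -4.55 for 8 ganglion cell markers, against -1.50 for the 10 cone genes. It was -2.75 for the 3 horizontal cell markers tested, -3.36 for 8 microglia markers and -3.31 for 8 markers of the pigment epithelium. Of the bipolar markers Prkca alone was higher in rod TRAP, at 1.57. Of 7 other cone-enriched genes 6 fell, by 1.67 to 3.25 on the log2 scale, and 1 rose, all past the test. The one that rose was Thrb, the nuclear receptor that sets middle-wave opsin, at 2.61 (adjusted p = 4.10e-09), while its partner Rxrg fell by 2.47 (adjusted p = 5.84e-07). The difference between lists was not tested.

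**Figure D2:**
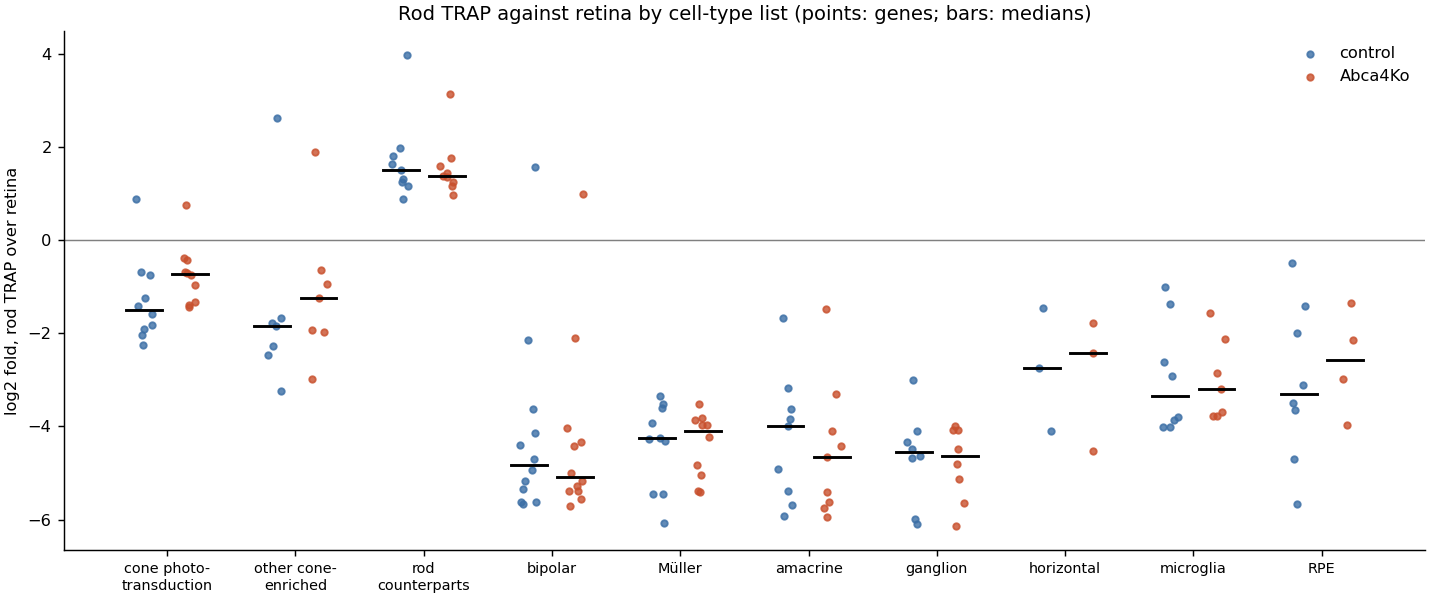
Log2 difference of rod TRAP over retina (vertical axis) for genes of 10 lists, in control and in Abca4Ko, with points for genes and bars for medians. Rod counterparts sit above 0, cone genes at medians of -1.50 and -0.72, and lists of other cell types at medians of -2.42 or lower.

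In Abca4Ko the cone genes were again mostly lower in rod TRAP than in retina, with differences nearer 0. Whether they were unequal in the genotypes is tested by the interaction given after the genotype comparisons. In Abca4Ko 8 members were lower and 1 higher in rod TRAP than in retina with an adjusted p under 0.05, where 33.7% and 30.4% of 16036 genes were called in these directions, and the median was -0.72 against 0.0044 for all genes. Under the authors' scaling alone the member median was -1.26 against -0.49 for all genes, Gnb3 was called (-0.97, adjusted p = 0.0284), and 4872 higher and 5408 lower calls over all genes became 2282 and 7814. Opn1mw was at -0.74 (SE 0.178, adjusted p = 0.00372), Arr3 at -0.70 (SE 0.141, adjusted p = 0.00119) and Gnat2 at -0.97 (SE 0.152, adjusted p = 2.13e-04). Opn1sw at -1.34, Pde6h at -1.40 and Gngt2 at -1.44 were the lowest, with adjusted p of 6.27e-05, 2.48e-05 and 3.58e-05. Cnga3 was at -0.70 (adjusted p = 0.0333) and Pde6c at -0.37 (adjusted p = 0.0428), and Cngb3 was again higher, at 0.75 (adjusted p = 0.0127). That call was lost under the authors' scaling (0.25, adjusted p = 0.405) and on the TPM scale (0.41, adjusted p = 0.275). Gnb3 was at -0.43 with an adjusted p of 0.184, which became 0.00981 with the number shared by rod TRAP and retina libraries as a block. Without the libraries labelled Abca4Ko 3, 6 members were called, as Pde6c, Cnga3 and Cngb3 fell short, where 43.5% of genes were called in either direction. The member median was then -0.75, against 0.15 for all genes.

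Between genotypes, rod TRAP held more cone message in Abca4Ko than in control for 9 of the 10 members by the sign of the log2 difference, where 50.3% of the 13104 genes tested had that sign. The median member difference, Abca4Ko over control, was 0.40, against 0.0016 for all genes. Only 1 member passed the test, Gngt2, where 1.13% of genes were called and 0.733% were called higher. At an unadjusted p under 0.05 there were 8 of 10 members, against 10.4% of genes. The normalised values of the genotypes did not overlap for 6 members (Opn1sw, Opn1mw, Arr3, Gnat2, Gngt2 and Pde6c), all higher in Abca4Ko, against 8.55% of genes. The tag is driven in rods, and which cells the cone message in the pull-down came from was not tested. In RNA from a mixture of cells, more cone ribosomes or cells in the pull-down and more message per cone cannot be told apart. The p-values measure the spread between these libraries, since nothing says that each came from separate animals.

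The opsins both stood higher in Abca4Ko rod TRAP. Opn1sw was at 1788, 1873 and 1807 scaled counts in control libraries 1 to 3 and at 1932, 2905 and 2771 in the libraries labelled Abca4Ko 1 to 3. The lowest Abca4Ko value lay just above the highest control value, and on the TPM scale that library, at 118.4, overlapped the controls at 119.1 to 133.6. The log2 difference of Opn1sw was 0.46 (SE 0.113, limma adjusted p = 0.109). Opn1mw was at 77.9, 59.5 and 76.1 TPM in control and at 105.5, 104.2 and 96.6 TPM in Abca4Ko. Every Abca4Ko library was above every control, with a log2 difference of 0.54 (SE 0.119, adjusted p = 0.0662).

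Arr3, whose product turns off the activated cone opsins, was at 66.9, 48.5 and 58.5 TPM in control rod TRAP and at 80.7, 91.5 and 79.5 TPM in Abca4Ko. The groups did not overlap, and the log2 difference was 0.60 (SE 0.129, adjusted p = 0.0564). This was the nearest to the threshold among the 9 members that missed it, and it passed with the library number as a block (adjusted p = 0.0499) and with no filter on low values. Same-numbered libraries of the genotypes did not vary together, so that block is arbitrary in this comparison.

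The transducin subunits split. Gngt2 was at 58.9, 64.8 and 62.3 TPM in control rod TRAP and at 100.6, 108.1 and 93.6 TPM in Abca4Ko. All Abca4Ko libraries were well above all controls, and Gngt2 rose by a log2 difference of 0.69 (SE 0.122, adjusted p = 0.0224), to 162% of control. In the reference annotation 12.5% of its exon bases lie under Abi3 on the other strand, and the library kit is not stated to keep strand, so reads of the 2 genes there cannot be told apart. Gnat2, the alpha subunit that activates the phosphodiesterase, was at 65.8, 71.7 and 59.0 TPM in control and at 75.8, 100.4 and 81.5 TPM in Abca4Ko. These did not overlap either, with a log2 difference of 0.37 (SE 0.0918, adjusted p = 0.110). Gnb3, the beta subunit, was at 214.3, 149.3 and 129.0 TPM in control and at 88.4, 164.5 and 193.5 TPM in Abca4Ko. Its genotypes overlapped throughout, with a log2 difference of -0.12 (SE 0.261, adjusted p = 0.905) and the widest interval of any member tested in rod TRAP, -0.75 to 0.50.

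The phosphodiesterase subunits had small differences that missed the test. Pde6c had a log2 difference of 0.24 (95% interval 0.00099 to 0.48, adjusted p = 0.478), with 18.5 to 22.8 TPM in control and 21.3 to 24.1 TPM in Abca4Ko. Pde6h had 0.25 (95% interval 0.00030 to 0.51, adjusted p = 0.478), with 53.4 to 58.9 TPM in control and 58.8 to 70.4 TPM in Abca4Ko. The channel subunits were at low levels: Cnga3 had a log2 difference of 0.26 (95% interval -0.23 to 0.76, adjusted p = 0.747) and Cngb3 of 0.44 (95% interval 0.046 to 0.83, adjusted p = 0.417). For these 4 genes the intervals hold both no difference, or nearly none, and a rise as large as that of Arr3 or, for the phosphodiesterase subunits, Opn1sw.

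The call of Gngt2 rested on the whole set of libraries. It was lost when Abca4Ko rod TRAP library 2 or any 1 control was left out. Without Abca4Ko 1 there were 5 calls (Opn1sw, Opn1mw, Arr3, Gnat2 and Gngt2). That fit called 4.59% of all genes tested, against 1.13% with all 6 libraries. Without the rod TRAP library labelled Abca4Ko 3 there were 3 calls (Opn1mw, Arr3 and Gngt2), where 0.935% of genes were called. There 9 of 10 members kept a positive sign, against 49.9% of genes, and the member median was 0.41. Without Abca4Ko 2 the sign of Cnga3 turned, to -0.010, and without Abca4Ko 1 or control 1 that of Gnb3 turned, to 0.12 and 0.082.

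In retina most members had the opposite sign, and none passed the test. By the sign of the log2 difference 9 of 10 members were lower in Abca4Ko, where 52.2% of 16964 genes were, and the median was -0.30 against -0.022 for all genes. The test called 0 of 10 members, where 0.106% of genes were called, and 2 of 10 (Opn1mw and Pde6h) had an unadjusted p under 0.05, against 12.0% of genes. Adjusted p ranged from 0.400 to 0.625. The genotypes did not overlap for Opn1mw and Cnga3, both lower in Abca4Ko, against 9.47% of genes, nor for Cngb3, which was higher, against 10.4% of genes. Without the retina library Abca4Ko 1, which stood apart in its bipolar markers, the median was -0.30, and without Abca4Ko 3 it was -0.29.

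Opn1mw had the largest retinal difference. It was at 340.6, 269.2 and 347.4 TPM in control retina and at 190.0, 218.4 and 189.5 TPM in Abca4Ko. All 3 Abca4Ko libraries were below all controls, and the log2 difference was -0.65 (SE 0.218, 95% interval -1.13 to -0.16, adjusted p = 0.400). Opn1sw was at 614.5, 553.8 and 649.4 TPM in control retina and at 398.5, 584.5 and 576.5 TPM in Abca4Ko. Its genotypes overlapped, with library Abca4Ko 1 far below the others and a log2 difference of -0.21 (SE 0.186, adjusted p = 0.610).

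The other retinal differences missed the test. Pde6h was at -0.49 (SE 0.203), Gnb3 at -0.48 (SE 0.230), Cnga3 at -0.40 (SE 0.194) and Gnat2 at -0.36 (SE 0.176) on the log2 scale. Pde6c at -0.24, Gngt2 at -0.23 and Arr3 at -0.22 were smaller still. Gnb3 was at 311.3 to 336.4 TPM in control retina and at 128.4, 311.9 and 301.5 TPM in Abca4Ko, so that its difference was carried mainly by library Abca4Ko 1. Gnb3 is also used by ON bipolar cells, and the bipolar sum of that library was the lowest of the 6; the part of bipolar cells in this value was not tested. Without that library the log2 difference of Gnb3 was -0.22. Cngb3 was the only member above control, at 1.6, 1.6 and 1.2 TPM in control and 1.6, 1.9 and 2.9 TPM in Abca4Ko. These TPM values touched, and the log2 difference was 0.48 (SE 0.228, adjusted p = 0.418).

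**Figure D3:**
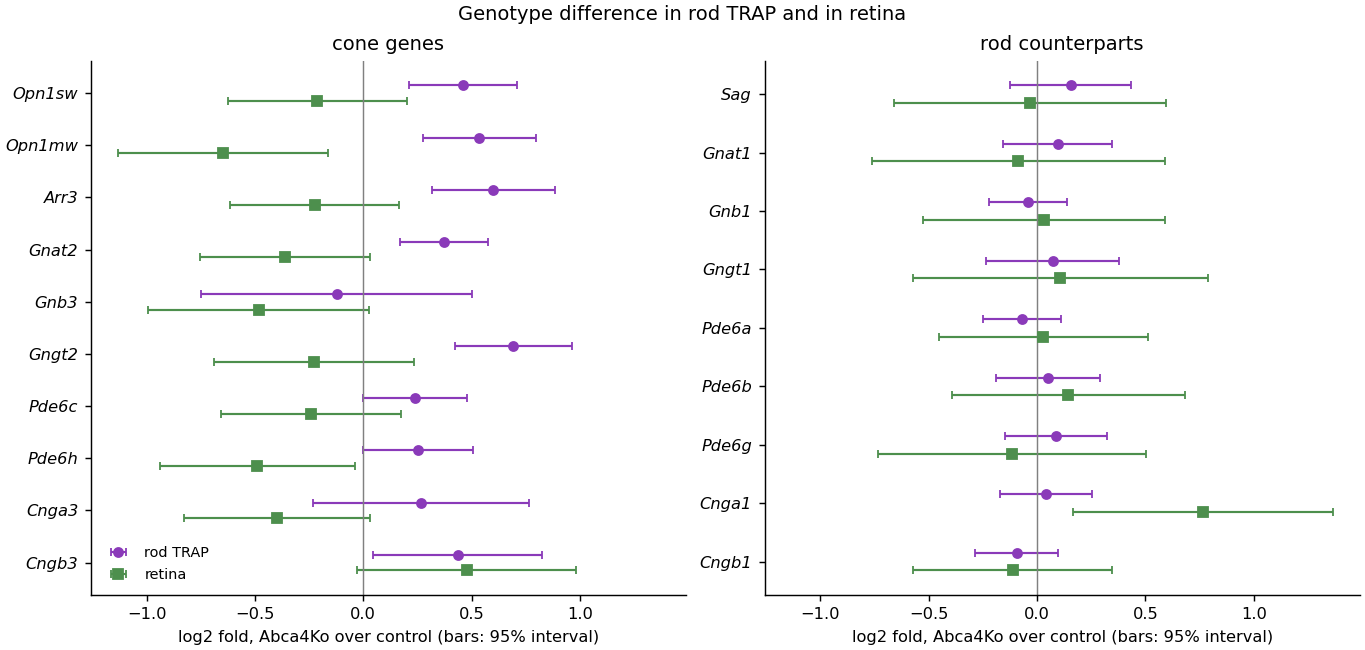
Log2 difference of Abca4Ko over control (horizontal axis) with 95% intervals from the limma fits, in rod TRAP (circles) and retina (squares), for the 10 cone genes and 9 rod counterparts. Of the cone genes 8 lie above 0 in rod TRAP and below 0 in retina, Cngb3 lies above 0 in both and Gnb3 below 0 in both, and the rod counterparts lie near 0 in rod TRAP, between -0.095 and 0.15.

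Whether the genotype difference was itself unequal in the fractions was tested over all 12 libraries. The difference in rod TRAP minus that in retina was positive for 9 of 10 members, where 50.6% of 17273 genes were, with a median of 0.68 against 0.0057. None of the 10 passed after adjustment (adjusted p 0.407 to 0.951), where 0.00579% of genes were called. At an unadjusted p under 0.05 there were 6 members (Opn1sw, Opn1mw, Arr3, Gnat2, Gngt2 and Pde6h), against 11.3% of genes. The largest was Opn1mw at 1.16 (SE 0.258, 95% interval 0.61 to 1.71, unadjusted p by limma = 4.33e-04), then Gngt2 at 0.90 (SE 0.245) and Arr3 at 0.80 (SE 0.219). Pde6h at 0.72 (SE 0.242), Gnat2 at 0.71 (SE 0.199) and Opn1sw at 0.65 (SE 0.227) followed. Cngb3 was at -0.053 (SE 0.291) and Gnb3 at 0.33 (SE 0.358), the smallest positive value. Without the libraries labelled Abca4Ko 3 in both fractions all 10 were positive, Cngb3 at 0.028, the median was 0.67 and none was called. The reported fit took the 12 libraries as independent. With same-numbered libraries of a genotype paired as a block, the adjusted p was lowest for Opn1mw, at 0.0527, and 0 of the 10 were called. The contrast combines the genotype and fraction comparisons above and adds no library to them.

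The same pattern showed in the level of each message in rod TRAP as a percentage of its level in the retina library of the same number, both in TPM. TPM values are shares of a library, so these percentages compare shares and do not measure recovery. Opn1mw in rod TRAP stood at 22.3 ± 0.510% of retina in the 3 control pairs and at 51.4 ± 3.93% in the 3 Abca4Ko pairs. The lowest Abca4Ko pair, at 47.7%, was above the highest control pair, at 22.9%. Gngt2 stood at 16.0 ± 2.54% and 30.5 ± 1.59%, Opn1sw at 20.9 ± 2.82% and 32.7 ± 2.77%, Pde6h at 19.2 ± 1.59% and 31.6 ± 4.39%, in control and Abca4Ko. Gnat2 stood at 26.6 ± 3.48% and 45.9 ± 5.01%, and Arr3 at 30.2 ± 2.57% and 51.1 ± 8.39%. All Abca4Ko pairs were above all control pairs for these 6 members, where 9.07% of 10181 genes with at least 1 TPM in every library were. Pde6c, Cnga3 and Gnb3 overlapped between genotypes, and Cngb3 stood at 164.6 ± 37.7% in control and 154.3 ± 46.6% in Abca4Ko. Without the pair labelled Abca4Ko 3 the Abca4Ko mean was 51.6% for Opn1mw. Summed over the 10 members, the share was 26.0 ± 2.28% in control and 41.5 ± 1.75% in Abca4Ko.

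**Figure D4:**
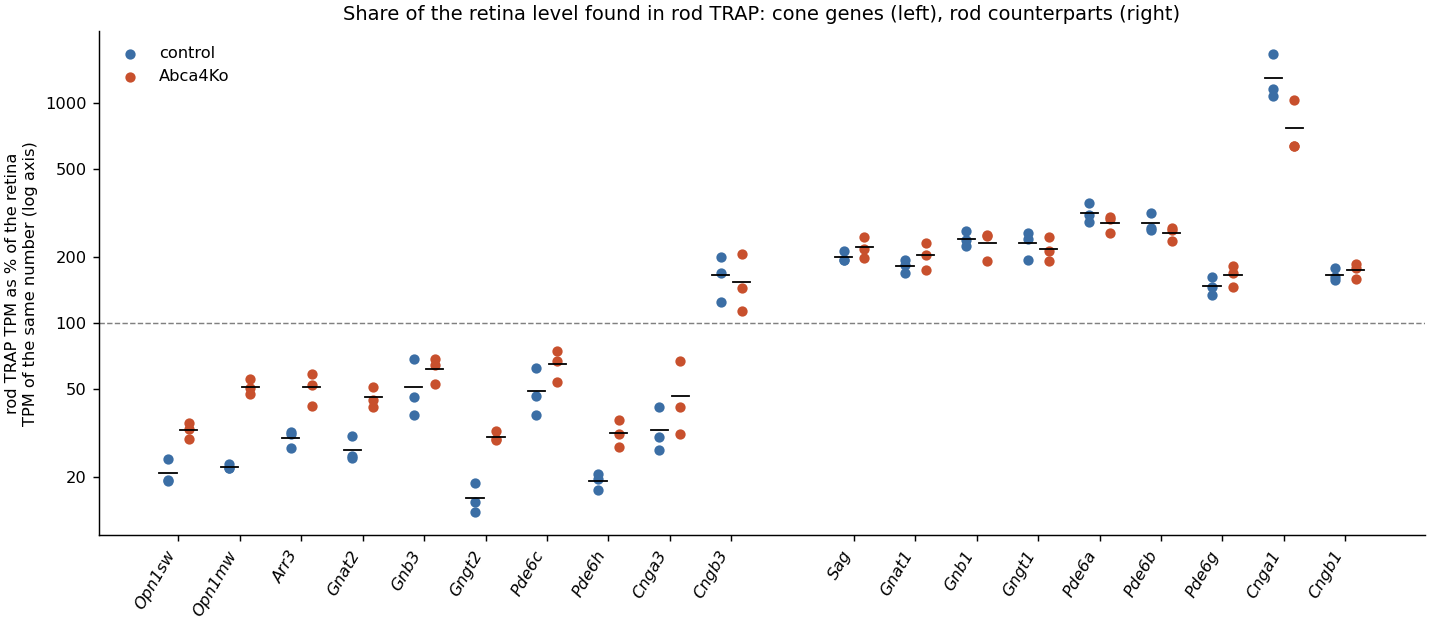
Rod TRAP level as a percentage of the retina level of the same library number (log axis, TPM), with points for the 3 pairs of each genotype and short bars for means, for the cone genes (left) and the rod counterparts (right). For 6 cone genes, Opn1mw among them at 22.3% and 51.4%, the Abca4Ko points lie wholly above the control points, and for 8 of the 9 rod counterparts the genotypes overlap.

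The rod counterparts were read the same way. None of the 9 was called by genotype in either fraction, where 1.13% of genes in rod TRAP and 0.106% in retina were. At an unadjusted p under 0.05 there were 0 of 9 in rod TRAP and 1 of 9 in retina, against 10.4% and 12.0% of genes. Their log2 differences in rod TRAP ran from -0.095 to 0.15. In retina they ran from -0.12 to 0.77, with Cnga1 the highest (adjusted p = 0.400) at 150.5, 134.3 and 95.1 TPM in control and 246.2, 153.5 and 243.4 TPM in Abca4Ko. Every Abca4Ko library of Cnga1 was above every control on the TPM scale, though the normalised scaled counts overlapped by a small margin. Without the libraries labelled Abca4Ko 3 none was called either. As a percentage of retina, Cnga1 stood at 1296 ± 316% in control and at 765 ± 230% in Abca4Ko, with all Abca4Ko pairs below all control pairs, and the other 8 overlapped. The rod counterparts summed to 197.7 ± 7.01% in control and 209.7 ± 25.8% in Abca4Ko. The 8 cone genes other than the opsins summed to 0.557 ± 0.0885% of the summed rod counterparts in Abca4Ko rod TRAP and 2.74 ± 0.826% in Abca4Ko retina, each overlapping the control values. In retina the libraries Abca4Ko 1, 2 and 3 stood at 1.79, 3.21 and 3.22%, against 3.34, 3.08 and 3.24% in controls, so that the lower mean was carried by Abca4Ko 1.

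The balance of the opsins was read within each library, where scaling drops out. The ratio of Opn1sw to Opn1mw scaled counts was 2.96 ± 0.831 in Abca4Ko rod TRAP and 3.04 ± 0.335 in control rod TRAP (n = 3 each, exact permutation test, two-sided p = 0.9). In retina it was 3.52, 4.41 and 5.25 in the Abca4Ko libraries and 3.03, 3.46 and 3.12 in the controls. Every Abca4Ko ratio lay above every control ratio, with means of 4.39 ± 0.867 and 3.21 ± 0.224 (exact permutation test, two-sided p = 0.1, the smallest that 3 against 3 allows). Without the libraries labelled Abca4Ko 3 the means were 2.68 in rod TRAP and 3.96 in retina. In the reference annotation 15.5% of the exon bases of Opn1sw lie under Calu on the other strand.

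Other genes of cones gave a partial match. Of 7 cone-enriched genes outside the cascade 1 was called by genotype in rod TRAP, where 1.13% of genes were. It was Kcne2, a potassium channel subunit. It was at 14.1, 14.7 and 13.8 TPM in control rod TRAP and at 22.2, 22.7 and 21.9 TPM in Abca4Ko. The groups were far apart relative to their spread, with a log2 difference of 0.70 (SE 0.119, adjusted p = 0.0184), and in retina the difference was 0.17 (adjusted p = 0.670). The call in rod TRAP was lost under 6 of 14 alternatives (adjusted p up to 0.125), among them leaving out Abca4Ko 2 or any 1 control, and was kept without the library labelled Abca4Ko 3 (0.76, adjusted p = 0.0251). Sall3, a zinc finger factor, had 0.63 (adjusted p = 0.280) and Tafa3 0.40 (adjusted p = 0.217) in rod TRAP. Rxrg had 0.29 and Thrb 0.03 (adjusted p = 0.743 and 0.926). None of the 7 was called in retina, where 4 were below 0 and 3 above, from -0.86 for Otop3 to 0.66 for Thrb. Their median in retina was -0.27, or -0.40 without the library labelled Abca4Ko 3.

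Regulators of opsin choice and shared parts of the cascade were not called by genotype. Of 9 regulators (Thrb, Rxrg, Rora, Rorb, Crx, Nr2e3, Pias3, Nr2f1 and Nr2f2) 8 passed the filter on low values in rod TRAP and 9 in retina, and Pias3, a SUMO ligase that acts with them, had a log2 difference of 0.24 in rod TRAP (adjusted p = 0.243). In retina 7 of the 9 were above 0 and 2 below, from -0.32 for Rxrg to 0.78, with a median of 0.039 and adjusted p of 0.400 or more. There 4 of the 9 had an unadjusted p under 0.05, against 12.0% of genes. By fraction in controls 6 of the 9 were higher in rod TRAP and 2 lower, against 36.6% and 38.8% of all genes. Of 11 genes of shutoff and calcium feedback that both photoreceptors use or that have a cone form, 10 were higher in control rod TRAP, against 36.6% of all genes, among them Gucy2f at 3.84 and Rgs9 at 2.84. The exception was Slc24a2, the cone exchanger of sodium, calcium and potassium, which fell by 0.86 (adjusted p = 9.06e-04). By genotype the medians of the 11 were 0.0069 in rod TRAP and 0.041 in retina.

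Markers of other cells were read beside these results. In the genotype comparisons none of the markers tested for bipolar, Müller, amacrine, ganglion, horizontal, microglial or pigment epithelial cells was called, and list medians in rod TRAP ran from -0.29 for amacrine to 0.24 for Müller markers. The filter on low values left 6 of 9 amacrine, 1 of 4 horizontal, 3 of 8 pigment epithelium and 0 of 8 microglia markers to test in rod TRAP. Of the 9 Müller markers tested there 8 were above 0, with 0 at an unadjusted p under 0.05. Below 0 there were 6 of the 6 amacrine and 7 of the 10 bipolar markers tested, with Trpm1 lowest at -0.93 (limma adjusted p = 0.170). Without the library labelled Abca4Ko 3 the Müller median was 0.35, against 0.41 for the cone genes. In retina the 8 markers of the pigment epithelium all had log2 differences below 0, with a median of -0.68, or -0.37 without the library labelled Abca4Ko 3. They summed to 167.3 to 407.5 TPM in control retina and to 82.9 to 225.9 TPM in Abca4Ko retina. Their genotype difference in rod TRAP minus that in retina was above 0 for all 8, with a median of 0.82, against 0.68 for the cone genes. It was above 0 for 7 of 8 microglia markers, with a median of 0.22. Medians of the bipolar, Müller, amacrine, ganglion and horizontal lists ran from -0.039 to 0.13, and no marker was called. In rod TRAP alone only 3 of 8 pigment epithelium markers and 0 of 8 microglia markers passed the filter on low values. The others entered this fit through their retina values. For genes that low in rod TRAP the contrast largely repeats the retina difference, so its sign and median for these lists cannot be set beside those of the cone genes. The part of pigment epithelium in the values of the cone genes was not tested. Bipolar markers other than Prkca summed to 17.7 to 24.4 TPM in control rod TRAP and to 21.6 to 25.1 TPM in Abca4Ko. Amacrine markers summed to 44.8 to 53.5 and 35.1 to 47.6 TPM, and Müller markers to 145.1 to 169.4 and 140.1 to 188.4 TPM. Microglia markers summed to 1.6 TPM or less in each rod TRAP library, with 2 of the 8 at 0 in all control rod TRAP libraries. All 10 cone genes summed to 590.4 to 692.1 TPM in control rod TRAP and to 654.5 to 865.9 TPM in Abca4Ko rod TRAP, which overlapped. Without Gnb3, the member with a log2 difference below 0 there, the other 9 summed to 455.3 to 477.8 TPM in control. In Abca4Ko these 9 summed to 566.1 to 701.4 TPM, with no overlap.

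Most members varied together within a fraction. Over the 6 rod TRAP libraries 9 of the 10 had a Pearson r of 0.66 to 0.93 with the mean of the other members, and Gnb3 had -0.093. There the median Pearson r among the 36 pairs without Gnb3 was 0.76, and among the 9 pairs with Gnb3 it was -0.15. Over the 6 retina libraries Cngb3 had r = -0.63 with the mean of the other members, Pde6c 0.38 and Gnb3 0.55, while Gnat2 had 0.96, Arr3 0.96 and Pde6h 0.95. These values are descriptions over 6 libraries that differ in genotype and share a scaling. Outside the lists, the genes whose rod TRAP profile was most like the mean of the 10 members were Reep2 (r = 0.98), Rccd1 (0.98), Amd2 (0.97), Rnf207 (0.97), Sort1 (0.97), Katnal2 (0.96), Rnf122 (0.96) and Hap1 (0.96), of 9342 genes ranked, and Tafa3 ranked 36th. In retina they were Gm11993 (r = 0.99), Smim10l2a (0.98), Tnfsf13 (0.98), Nek6 (0.97), Ptk2b (0.97), Dgat1 (0.97), Hdhd5 (0.97) and Orai2 (0.96), of 11768.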

How the data were processed

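Rod TRAP and retina RNA of both genotypes was converted with a low-input kit and sequenced. The submitters' processing notes name CASAVA 1.8.2, HISAT2, DESeq2, edgeR and build GRCm39, with no roles given; how reads of several genes were assigned is not given in the sources used here. The authors deposited scaled counts, a score: read counts of a library multiplied by 1 factor to a common total per fraction and rounded. They also deposited TPM, made by the authors, to 1 decimal. All 12 columns correlated best with their namesake in the other table.

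The planned limma test was kept. Scaled counts were brought to a common level with TMM factors (trims 0.3 and 0.05) and expressed as log2(CPM + 0.5). Genes with at least 10 scaled counts in at least 3 libraries of a fit were tested with limma 3.58.1 (trend, robust, two-sided) in R 4.3.3, with Benjamini-Hochberg adjustment over all genes tested and a threshold of 0.05. For genes near 0 such log2 differences come out too small. The SE is limma's moderated one. The fit was tested on simulated data. Genotypes were compared in each fraction and fractions in each genotype, from 6 libraries each, and the interaction from all 12. The opsin ratio was tested by an exact permutation test.

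Members, counterparts, lists and the rule for named genes (all members, their rod counterparts, list genes that were called up to 4 a list, and the 8 genes most alike in profile) were chosen with earlier results of these data known. Some planned values are not reported here. Alternatives were other scalings, a pseudocount of 2, no filter, log2(TPM + 1), no robust step, a replicate block, a fit of all 12 libraries and leaving out each library. Leaving out the libraries labelled Abca4Ko 3 in both fractions, also for the percentages and the opsin ratio, and the motif TAATC were added after the data were seen. The block was checked by correlating deviations from group means: same-numbered rod TRAP and retina libraries of a genotype had r of 0.16 to 0.43 in all 6 pairs, so the numbers pair fractions, but not genotypes (r -0.39 to 0.012). Promoters came from RefSeq (GRCm38.p6), and gene overlaps from GENCODE on GRCm38, of which no coordinates are used. Python 3.11.15 with numpy 2.4.6, pandas 2.3.3, scipy 1.17.1 and matplotlib 3.10.9 was used.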

Additional observations from a re-analysis of the deposited data

Results flagged for a closer look

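Opn1mw, the middle-wave cone opsin, was the only cone gene or rod counterpart whose genotypes did not overlap in either fraction and lay in opposite directions. All 3 Abca4Ko libraries were above all controls in rod TRAP and below all controls in retina. The genotype difference in rod TRAP minus that in retina was 1.16 on the log2 scale, with a limma adjusted p of 0.407 (unadjusted p by limma 4.33e-04). Over the 20 alternatives the difference ran from 0.99 to 1.36 and the adjusted p from 0.0527 to 0.852, and none passed. The lowest, 0.0527, came from the fit that pairs same-numbered libraries of a genotype.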

How the results depend on the processing

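The 10 cone genes kept the sign of their genotype difference in retina under all 14 alternatives, and the sign of their fraction differences under all 14 in control and all 15 in Abca4Ko. In rod TRAP 8 of the 10 kept the sign of their genotype difference under all 14. Leaving out 1 library turned Gnb3 there (range -0.30 to 0.12) and Cnga3 (range -0.010 to 0.42). The interaction of Cngb3 changed sign with a library left out (range -0.21 to 0.10) and without the libraries labelled Abca4Ko 3 (0.028). The number of cone genes called in rod TRAP was 1 as reported, 3 with no filter, 2 with the replicate block, 0 in the fit of all 12 libraries and 0 to 5 with a library left out. Genes called by genotype in rod TRAP were 148 as reported, 58 on the TPM scale, 94 in the fit of all 12 and 30 to 594 with a library left out. In retina they were 18 as reported, 33 with no filter, 38 on the TPM scale, 62 in the fit of all 12 and 1 to 21 with a library left out. By fraction in Abca4Ko they were 10280 as reported, 6595 to 9820 with a library left out and 5716 without those labelled Abca4Ko 3. The interaction called 1 gene as reported and 3 on the TPM scale. The cause of these shifts was not tested. The rod counterparts' genotype differences had the other sign in 7 of 126 values in rod TRAP and 14 of 126 in retina, with 0 called.

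With the library number as a replicate block, which pairs the fractions but not the genotypes, 46 genes were called by genotype in retina and 151 in rod TRAP. The block changed no other call of a cone gene than Gnb3 by fraction in Abca4Ko and Arr3 by genotype in rod TRAP.

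With 3 libraries a group and unknown depth, differences of low genes such as Cnga3 and Cngb3 are poorly resolved, and the values are relative within a library.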
